A study of Mus musculus with 10 samples.

Results

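The nuclear-encoded subunits of the mitochondrial respiratory chain and of ATP synthase were compared between 3 regions of the mouse heart: RV (right ventricle), LV (left ventricle) and Septum, the wall between the ventricles. Members were the genes whose symbol starts with Nduf, Sdh, Uqcr, Cox4, Cox5, Cox6, Cox7, Cox8 or Atp5, together with Cycs and Cyc1, found through the RefSeq accession of each probe. This gave 86 genes on 107 probes, out of 22911 named genes on the array. The 12 assembly factors with the symbols Ndufaf and Sdhaf were kept apart. Of the 86 genes, 85 passed the filter on dim probes, and all 85 were well above background on all 10 arrays. The remaining gene, Cox8c, a testis isoform of a small complex IV subunit, was not well above background on any array. Another 4 protein-coding genes that meet the naming rule, Cox5b, Ndufb1, Ndufb4b and Ndufb4c, had no probe named through the reference and were not analysed here, nor were the subunits encoded by mitochondrial DNA.

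The study screened for genes with regional expression in the heart. RNA was taken from C57BL/6N mice, with 4 RV, 3 LV and 3 Septum samples, each hybridised alone to a 1-colour Agilent array. The labels give no treatment, genetic change, age or sex for these animals, and all 3 groups share the same strain. According to the series' design text, separate individuals were used for each experiment, but the labels do not say whether samples with the same number came from 1 heart.

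The respiratory chain lies in the inner mitochondrial membrane. Complex I takes electrons from NADH and complex II takes them from succinate, and both pass them through ubiquinone to complex III. Cytochrome c then carries them to complex IV, which reduces oxygen, and the proton gradient built on the way drives ATP synthase, also called complex V. The heart muscle cell is among the cells richest in mitochondria, and several small subunits of complex IV have a separate isoform for heart and skeletal muscle. NRF1, the GABP factor of the ETS family, the oestrogen-related receptors (ERR) and YY1 are transcription factors long linked to nuclear genes of this system.

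RefSeq promoter windows (GRCm38.p6), each with 250 bases before and 50 after the annotated start, were at hand for 69 of the 86 members, and 22 of these held at least 1 of 4 short motifs searched on both strands. The NRF1 core CGCATGCG, which reads the same on both strands, stood in 10 of 69 members (14.5%), against 2.07% of all 27025 genes with a window and 3.68% of the 11528 other genes tested on the array. The members that held it were Atp5g2, Atp5j, Atp5k, Atp5l, Cox6a1, Cycs, Ndufa11, Ndufa8, Uqcr11 and Uqcrc1. The YY1 motif AAGATGGCG stood in 7 members (10.1%, against 1.64% of all genes and 3.06% of the other tested genes), which were Atp5j, Atp5j2, Ndufa9, Ndufc1, Ndufs4, Ndufs6 and Ndufs7. The ETS motif CCGGAAGT stood in 5 members (7.25%, against 4.31% and 7.76%), and the ERR motif TCAAGGTCA stood in Atp5g3 and Sdhd (2.90%, against 0.466% and 0.330%). None of the 4 motifs contains another. A match of letters is a description of the window and no evidence of binding.

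The 250 bases before the start are shown for 6 members, all read 5′ to 3′ along the gene, with any match to the 4 motifs in capitals and the rest in lower case. Cycs (chr6:50566570-50566819, minus strand) and Cox6a1 (chr5:115348959-115349208, minus strand) carry the NRF1 core, and Uqcr11 (chr10:80406822-80407071, minus strand) carries the ETS motif, and its NRF1 core spans the start, so that it is not whole in the stretch shown. Sdha (chr13:74350241-74350490, minus strand), Uqcrfs1 (chr13:30545317-30545566, minus strand) and Cox6b2 (chr7:4753095-4753344, minus strand) are members on which the regional results below turn, and hold none of the 4 motifs in this stretch.
Cycs: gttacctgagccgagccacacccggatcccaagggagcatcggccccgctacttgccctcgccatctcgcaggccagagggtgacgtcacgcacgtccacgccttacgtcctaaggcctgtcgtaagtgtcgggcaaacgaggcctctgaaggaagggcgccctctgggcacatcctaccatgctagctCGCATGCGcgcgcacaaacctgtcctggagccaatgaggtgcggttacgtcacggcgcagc
Cox6a1: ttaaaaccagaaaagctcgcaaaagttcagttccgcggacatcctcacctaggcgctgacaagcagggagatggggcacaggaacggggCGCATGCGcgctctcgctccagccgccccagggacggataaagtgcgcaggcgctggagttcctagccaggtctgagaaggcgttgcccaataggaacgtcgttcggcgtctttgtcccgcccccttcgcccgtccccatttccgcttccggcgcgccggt
Uqcr11: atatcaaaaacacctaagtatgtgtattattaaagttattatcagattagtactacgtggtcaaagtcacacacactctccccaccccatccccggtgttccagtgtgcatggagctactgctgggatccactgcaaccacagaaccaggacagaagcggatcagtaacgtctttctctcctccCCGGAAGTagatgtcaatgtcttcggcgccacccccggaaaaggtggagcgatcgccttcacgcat
Sdha: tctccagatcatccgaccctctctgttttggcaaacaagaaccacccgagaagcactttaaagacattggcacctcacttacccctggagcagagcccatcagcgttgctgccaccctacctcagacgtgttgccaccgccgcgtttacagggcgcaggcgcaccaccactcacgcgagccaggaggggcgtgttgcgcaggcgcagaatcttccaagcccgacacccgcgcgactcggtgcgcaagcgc
Uqcrfs1: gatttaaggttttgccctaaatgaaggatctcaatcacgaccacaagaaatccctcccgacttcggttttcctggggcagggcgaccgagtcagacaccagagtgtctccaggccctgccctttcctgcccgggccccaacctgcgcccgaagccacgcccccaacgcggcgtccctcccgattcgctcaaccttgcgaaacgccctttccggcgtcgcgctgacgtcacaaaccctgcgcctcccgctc
Cox6b2: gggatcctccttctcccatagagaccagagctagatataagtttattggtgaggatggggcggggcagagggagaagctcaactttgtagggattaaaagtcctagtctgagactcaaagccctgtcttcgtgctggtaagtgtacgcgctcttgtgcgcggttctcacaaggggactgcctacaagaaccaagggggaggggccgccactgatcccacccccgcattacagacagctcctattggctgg

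Members that held the NRF1 core had a median RV minus LV difference of -0.04 on the log2 scale (10 genes, range -0.21 to 0.01), and the 59 tested members with a window but without it had a median of -0.07. No test of a difference by motif was made.

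Levels are given as log2 signal relative to the 75th percentile of each array. Probes differ in brightness for the same amount of RNA, so levels were not compared between genes. Each gene is represented by its brightest probe, and differences were tested with limma over all 30234 probes well above background, with Benjamini-Hochberg adjustment and a threshold of 0.05. The members were bright, with a median level of 7.97, and 80 of 85 had a mean level above 5. Their arrays within a region lay close together, with a median SD of 0.12 in RV, 0.07 in LV and 0.08 in Septum, and the SD stayed under 0.3 in every region for 82 of 85. The exceptions were Cox6b2, Cox7b2 and Ndufa4l2, of which Cox7b2 is named here because of its values.

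No member differed between the 3 regions at an adjusted p below 0.05 by limma, either in the test across the regions or in any pair. Among all 14645 genes tested, 3.67% were called across the regions, 4.98% in RV against LV, 2.70% in RV against Septum and 0% in Septum against LV. At an unadjusted limma p below 0.05, 8 of 85 members were lower in RV than in LV and 0 higher, where 22.8% of all genes passed in either direction. By the same count 1 member passed in RV against Septum, where 16.3% of all genes did, and 0 passed in Septum against LV, where 2.90% did. The methods' test, an analysis of variance with Tukey's comparison and no adjustment across genes, passed 6 members in RV against LV (16.5% of all genes), 1 in RV against Septum (11.4%) and 0 in Septum against LV (1.57%).

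The precision of the arrays limited how large a hidden difference could be. The median standard error of a member's RV minus LV difference was 0.09 on the log2 scale. For 82 of 85 members the 95% interval of the difference lay within 1.5-fold in either direction, and the other members were Cox6b2, Cox7b2 and Ndufa4l2. The interval lay within the same bounds for 83 of 85 in RV against Septum and for 83 of 85 in Septum against LV. An unadjusted interval of this kind covers each gene by itself.

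**Figure D1:**
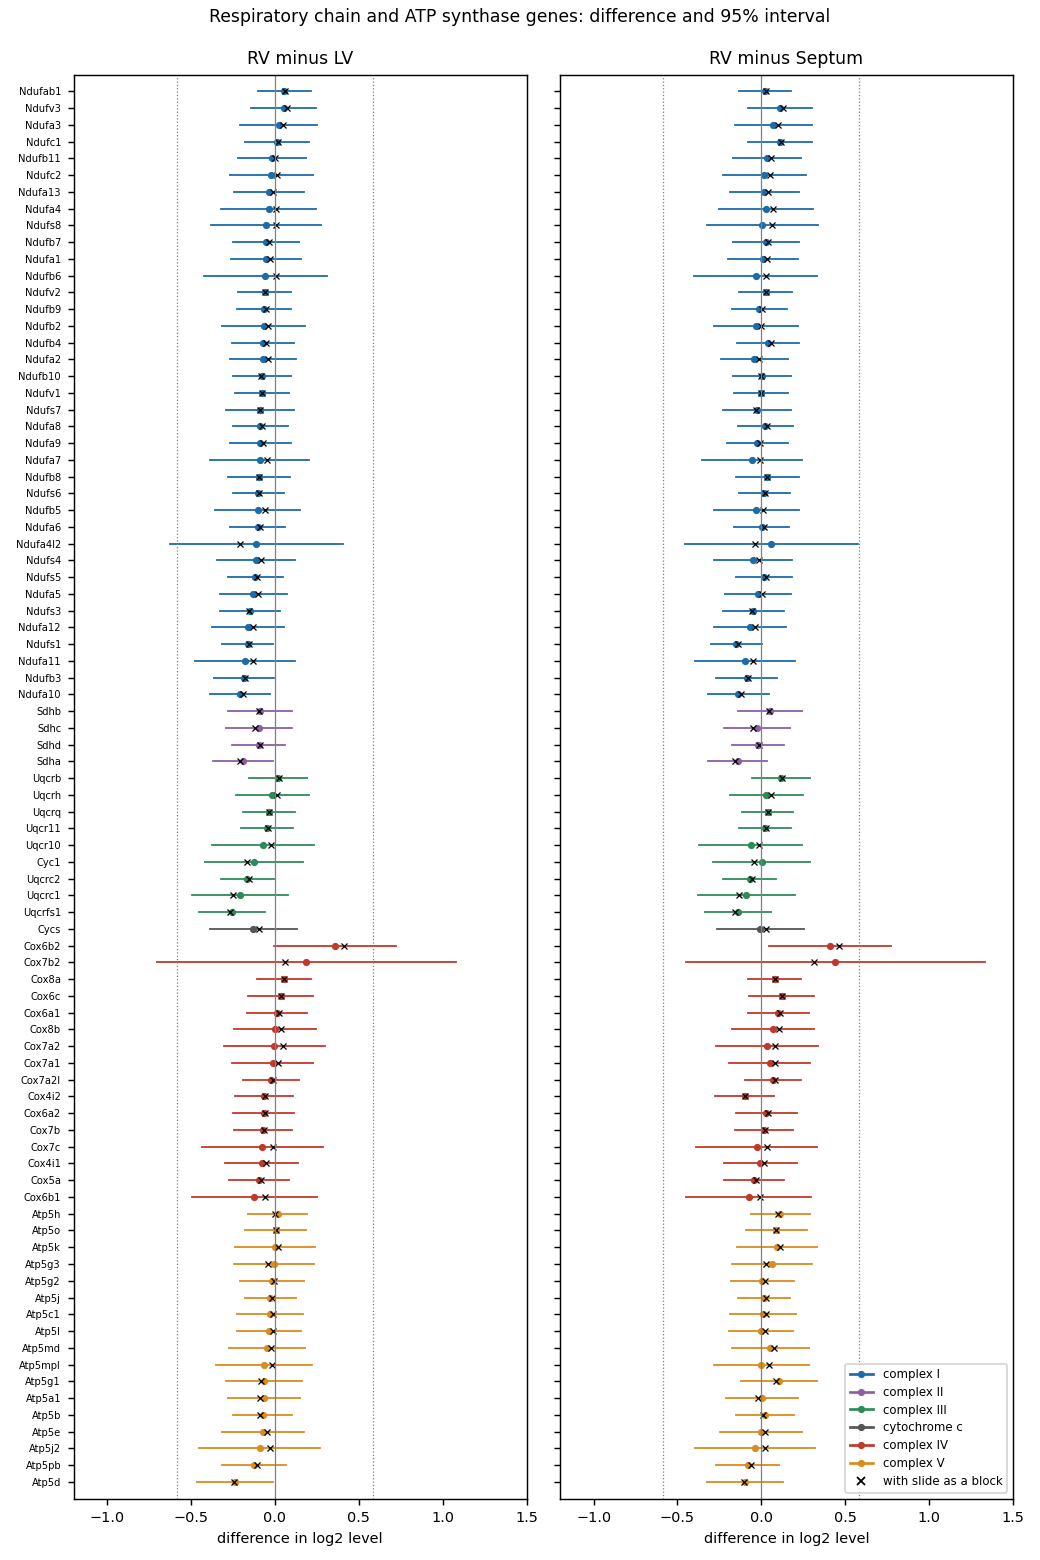
Difference in log2 level (x axis) of 84 of the 85 tested members, RV minus LV on the left and RV minus Septum on the right, with points for the fit without a slide term, lines for its 95% interval, crosses for the fit with slide as a block, and dotted lines at 1.5-fold. The intervals stay between the dotted lines except those of Cox6b2, Cox7b2 and Ndufa4l2 in RV minus LV and of Cox6b2 and Cox7b2 in RV minus Septum.

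In direction, members leaned to lower levels in RV than in LV. Of 85 members, 72 had a lower mean in RV and 13 (15.3%) a higher mean, where 39.4% of all genes tested were higher. The median difference was -0.07, with -0.05 over all genes tested. Against Septum, 49 (57.6%) had a higher mean in RV and 36 a lower mean, where 40.8% of all genes were higher. The median was 0.01 beside -0.04 over all genes. In Septum against LV, 83 members had a lower mean in Septum, where 41.8% of all genes had a higher mean. The other 2 members were Cox4i2 and Ndufab1. The median was -0.07 beside -0.02 over all genes. After quantile normalization, 40 of 85 members had a higher mean in Septum, with a median of -0.01 beside -0.01 over all genes. The RV and LV arrays did not overlap in 12 members, all lower in RV, where 13.4% of all genes were lower without overlap, and in 0 members were all RV arrays higher, where 9.16% of all genes were. Septum arrays lay wholly below LV arrays in 11 members, where 3.77% of all genes did, and in 0 members wholly above, where 3.63% did. RV arrays lay wholly below Septum arrays in 2 members, among them Ndufs1 (named for this value), where 9.05% of all genes did, and wholly above in 0, where 6.94% did.

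The lean of RV against LV was not the same on the slides that held the arrays. The scanner headers place samples 1 and 2 of each region on slide 1 and RV3, RV4, LV3 and Septum3 on slide 2. Within slide 1, the median difference of the members was 0.02, and 47 of 85 were higher in RV. Within slide 2 it was -0.12, and 3 of 85 were higher. The difference from Septum behaved in the same way, with a median of 0.09 on slide 1 and -0.07 on slide 2. The members' score, the median over the 85 genes of their deviations from their own means on an array, was 0.11 and 0.04 on RV1 and RV2 but -0.12 and -0.09 on RV3 and RV4. The LV arrays read 0.09, 0.03 and 0.02 on the same score, and the Septum arrays read -0.06, 0.02 and -0.03. RV arrays therefore lay both above and below the other regions, while each Septum array lay below the LV array of the same number.

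**Figure D2:**
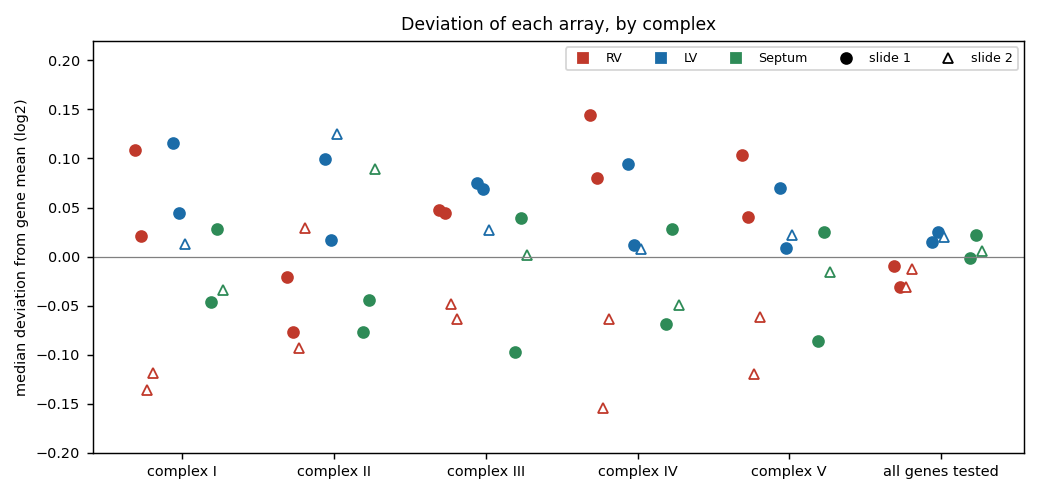
Median deviation of the genes of each complex from their own means (y axis, log2) on each of the 10 arrays, coloured by region, with circles for slide 1 and open triangles for slide 2, beside all genes tested. In complexes I, III, IV and V, the slide 1 RV arrays lie above 0 and the slide 2 RV arrays below it, while complex II does not show this order.

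When slide was fitted as a block, 22 members were lower on slide 2 than on slide 1 at an adjusted p below 0.05 and 6 were higher, where 22.7% and 22.6% of all genes were. The lowest of these was Cox6b1, a ubiquitous small subunit of complex IV, at -0.40 (adjusted p = 0.0007), and the highest was Cox7b2, a testis form of another, at 0.76 (adjusted p = 0.033). Ndufa4l2, a hypoxia-inducible relative of Ndufa4, followed at 0.58 (adjusted p = 0.0002). The median size of the slide difference was 0.11 over the members, and that of the RV minus LV difference was 0.07. Slide and the animals of the samples on it cannot be told apart.

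With slide as a block, the members' median RV minus LV difference was -0.051, beside -0.049 over all genes tested. In that fit 22 of 85 members were higher in RV, where 5879 of all 14645 genes were. Of the members, 4 passed in RV against LV, 3 lower and 1 higher, where 12.5% and 8.81% of all genes passed. In RV against Septum 1 member passed, higher, where 5.34% of all genes did. In Septum against LV none passed, where 0.0751% of all genes passed in either direction, and across the regions 2 passed, where 15.8% did. With the replicate number as a block, which pairs samples of the same number, 2 members passed in RV against LV, both lower, where 10.6% of all genes did. RV4 has no partner, so it forms a block of its own and adds nothing to the differences in that fit. The members' median RV minus LV difference was -0.0356 in that fit and -0.0356 without RV4. Of the members called with slide as a block, Sdha, Uqcrfs1 and Cox6b2 are described here.

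Sdha encodes the flavoprotein of complex II, the succinate dehydrogenase that also serves the tricarboxylic acid cycle. Its level (probe A_55_P2012974) was 6.17, 6.15, 6.19 and 6.37 in RV, 6.39, 6.40 and 6.44 in LV and 6.27, 6.38 and 6.43 in Septum. The RV arrays lay below the LV arrays without overlap, and RV4 stood closest to them. RV minus LV was -0.19 ± 0.08 (SE, limma, adjusted p = 0.22), with -0.21 and an adjusted p of 0.047 with slide as a block. With replicate number as a block, a fit to whose differences RV4 adds nothing, the adjusted p was 0.034. Left-out arrays undid the slide-block call in 9 of 10 fits, RV4 being the exception, with adjusted p from 0.036 to 0.12. A second, dimmer Sdha probe gave -0.30 against LV (adjusted p = 0.066, and 0.018 with slide as a block) and -0.25 against Septum (adjusted p = 0.16, and 0.048 with the block).

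Uqcrfs1 encodes the Rieske iron-sulphur protein of complex III. Its level (probe A_51_P361951) was 7.17, 7.24, 7.42 and 7.39 in RV, 7.61, 7.54 and 7.52 in LV and 7.33, 7.51 and 7.50 in Septum. All RV arrays lay below all LV arrays, the slide 1 arrays by more than the slide 2 arrays, while Septum1 lay within the RV range. RV minus LV was -0.25 ± 0.09 (SE, limma, adjusted p = 0.15), and -0.27 with an adjusted p of 0.037 with slide as a block and 0.064 with replicate number as a block. It was -0.37 within slide 1 and -0.12 within slide 2. The slide-block call was kept without Septum1, Septum2, RV3 or LV3 and lost without any 1 of the other 6 arrays (adjusted p up to 0.11).

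Cox6b2 encodes the testis isoform of a complex IV subunit on the side of cytochrome c. Its level (probe A_51_P300506) was 0.82, 0.62, 0.09 and 0.23 in RV, 0.16, 0.10 and -0.02 in LV and 0.10, 0.05 and -0.07 in Septum. RV1 and RV2 lay above all other arrays, whereas RV3 lay among the LV and Septum arrays and RV4 just above them. RV minus LV was 0.36 ± 0.16 (SE, limma, adjusted p = 0.26), or 0.41 with an adjusted p of 0.031 with slide as a block and 0.061 with replicate number as a block. Within slide 1 it was 0.59 and within slide 2 it was 0.17. Against Septum the difference was 0.41 (adjusted p = 0.30), or 0.46 with slide as a block (adjusted p = 0.032). Without RV1, LV1, RV2, LV2, RV4 or LV3 the slide-block call against LV was lost (adjusted p up to 0.096), and against Septum it was kept only without LV2, RV3 or LV3 (adjusted p up to 0.11).

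**Figure D3:**
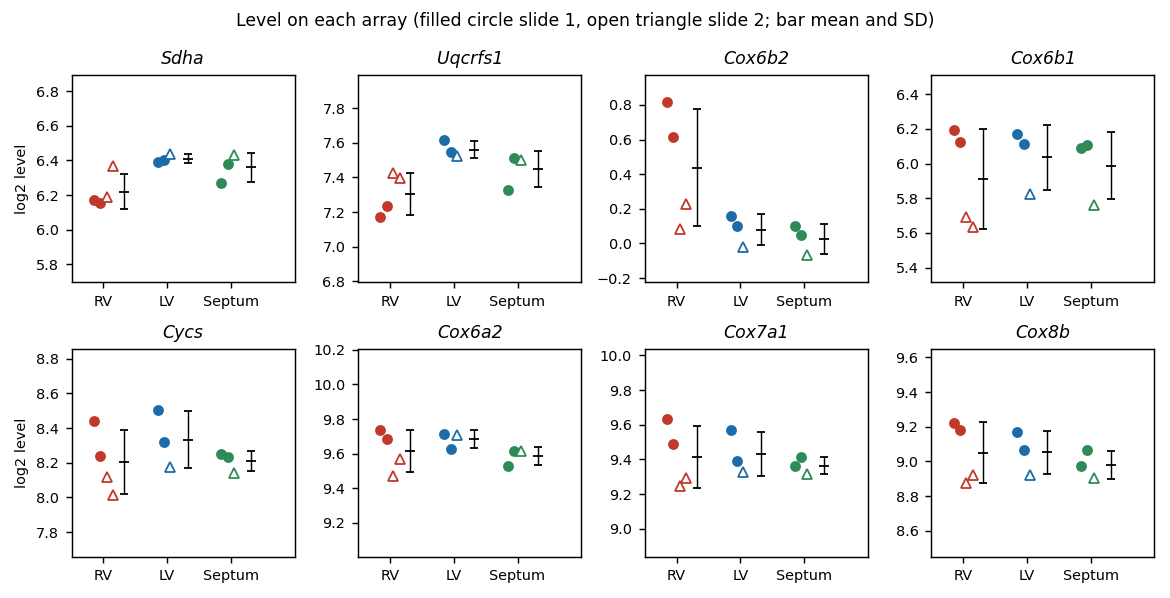
Log2 level (y axis, the same span in each panel) of 8 members on each array by region, with circles for slide 1, open triangles for slide 2, and bars for the mean and SD. RV lies below LV without overlap in Sdha and Uqcrfs1, only RV1 and RV2 stand high in Cox6b2, and the regions overlap in Cycs, in Cox6b1 and in the 3 muscle isoforms Cox6a2, Cox7a1 and Cox8b.

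Genes were grouped by symbol, so Ndufa4, described below as part of complex IV, and its relative Ndufa4l2 count under complex I. By complex, all groups had a negative median in RV against LV, where the median over all genes tested was -0.052. The medians of complexes IV and V lay above that value. Complex I, the largest group with 38 tested subunits, had a median of -0.08, with 34 lower and 4 higher, the highest being Ndufab1, the mitochondrial acyl carrier protein, at 0.06. The 4 subunits of complex II lay between Sdha at -0.19 and Sdhb, its iron-sulphur subunit, at -0.09, and all were lower in RV. In complex III, 8 of 9 were lower, from Uqcrfs1 at -0.25 to Uqcrb, a small ubiquinone-binding subunit, at 0.02, with a median of -0.07. Complex IV had the smallest median, -0.02, with 11 of 16 lower, from Cox6b1 at -0.12 to Cox6b2 at 0.36. Among the 17 subunits of ATP synthase, 14 were lower, with a median of -0.05, from Atp5d, a subunit of the rotating stalk, at -0.24 to Atp5h, a subunit of the outer stalk, at 0.02. None of these extremes had an adjusted p below 0.05 by limma.

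Within slide 1 alone, complexes III, IV and V had medians of 0.01, 0.06 and 0.05 in RV against LV, while complexes I and II had -0.01 and -0.09. Within slide 2, all 5 were negative, from -0.17 in complex II to -0.08 in complex IV. Against Septum, the medians were 0.00 in complexes I and III, -0.02 in complex II, 0.04 in complex IV and 0.01 in complex V. Complex II was thus the only group of the 5 with a negative median in RV against LV and in RV against Septum on slide 1 and on slide 2. That holds for 4 genes, and no test of a difference between complexes was made.

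Cycs, the mobile electron carrier, read 8.44, 8.24, 8.12 and 8.01 in RV, 8.50, 8.32 and 8.17 in LV and 8.25, 8.23 and 8.14 in Septum. The 3 ranges overlapped. RV minus LV was -0.13 ± 0.12 (SE, limma, adjusted p = 0.60), and the slide 2 arrays read lower than the slide 1 arrays in each region (slide difference -0.21, adjusted p = 0.027). Its partner in complex III, Cyc1, went the other way between slides, at 0.26 (adjusted p = 0.014).

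The isoform pairs of complex IV were examined because heart muscle uses its own forms. The heart and muscle forms Cox6a2, Cox7a1 and Cox8b had RV minus LV differences of -0.07, -0.01 and 0.00. Cox6a2 read 9.74, 9.68, 9.47 and 9.57 in RV against 9.72, 9.62 and 9.71 in LV, so the ranges overlapped. Cox7a1 read 9.63, 9.49, 9.24 and 9.29 in RV against 9.57, 9.39 and 9.33 in LV, and Cox8b read 9.22, 9.18, 8.88 and 8.92 against 9.17, 9.07 and 8.92. The regions overlapped in both, and the slide 2 arrays were the lower ones.

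The forms found in most tissues, Cox6a1, Cox7a2 and Cox8a, had RV minus LV differences of 0.01, 0.00 and 0.05. Neither set differed between regions at an adjusted p below 0.05, with intervals within 1.5-fold. Cox4i1, the main form of the largest nuclear-encoded subunit, and Cox4i2, its lung form, gave -0.08 and -0.06. Cox6b1, the ubiquitous partner of Cox6b2, gave -0.12, with RV at 6.19, 6.13, 5.69 and 5.64 and LV at 6.17, 6.11 and 5.82, and the slide 2 arrays were the lowest in both regions. Cox7a2l, which joins complexes III and IV in supercomplexes, gave -0.02.

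Ndufa4, named for complex I but found in complex IV, gave -0.04, and Ndufc2, a membrane subunit of complex I, gave -0.02. Ndufa4l2 read 2.08, 1.96, 2.65 and 2.60 in RV, 2.23, 2.25 and 2.82 in LV and 1.99, 2.18 and 2.61 in Septum. The slide 2 arrays were higher in all 3 regions. Its RV minus LV difference was -0.11 (adjusted p = 0.84) and became -0.21 with slide as a block (adjusted p = 0.052). On both slides it was negative, at -0.22 and -0.20.

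Several probes were tested for 18 members. All probes of a gene gave the same sign of the RV minus LV difference in 14 of these 18. In 13 of 18 a dimmer probe lay farther from 0 than the brightest probe. Dimmer probes of Ndufa10, an accessory subunit of complex I, and Atp5a1, the alpha subunit of ATP synthase, passed with slide as a block (-0.21 with adjusted p = 0.018, and -0.19 with adjusted p = 0.047), while their brightest probes did not (adjusted p = 0.062 and 0.35). These 2 genes are named because of those values. No probe of any member passed without the block.

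The genes that build and regulate the chain had lower medians in RV against LV than the subunits, a difference that was not tested. Their probes were dimmer. Mean levels on RV arrays were 2.49 to 2.72 for the Ndufaf and Sdhaf factors and 1.94 to 2.09 for the biogenesis regulators. The members read 7.46 to 7.66. The part of probe brightness in the difference was not tested. All 12 Ndufaf and Sdhaf assembly factors had a lower mean in RV than in LV, with differences from -0.29 to -0.07 and a median of -0.18. None passed by limma, and with slide as a block 2 did, Ndufaf1 and Ndufaf6 (-0.25 and -0.19, adjusted p = 0.036 and 0.041), where 12.5% of all genes passed as lower. With replicate number as a block 0 did, the adjusted p of these genes being 0.076 and 0.070. They were also lower in RV than in Septum in 12 of 12. Of the wider assembly lists, 2 of 23 tested genes for complex IV passed, Cox19 (-0.56, adjusted p = 0.028), a copper-handling protein of the intermembrane space, and Taco1 (-0.49, adjusted p = 0.022), a translational activator for a complex IV subunit. In the list for complex III, 1 of 5 passed, Ttc19 (-0.37, adjusted p = 0.028), which clears processed fragments of the Rieske protein. In the list for complex I 0 of 15 passed, with 8 at an unadjusted p below 0.05. In the list for complex II 0 of 4 passed (2 unadjusted), and in that for ATP synthase 0 of 5 (4 unadjusted). Over all genes, 22.8% passed unadjusted in either direction. The lists for complexes I and II hold Ndufaf and Sdhaf genes counted above, so their counts overlap with those of the 12. With slide as a block, 5 of 15 genes passed for complex I, 0 of 4 for complex II, 3 of 5 for complex III, 10 of 23 for complex IV and 2 of 5 for ATP synthase, all lower. With replicate number as a block these counts were 1, 0, 3, 4 and 2, where 10.6% of all genes passed as lower.

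Cox19 read 3.49, 3.53, 3.46 and 3.22 in RV, 4.11, 4.03 and 3.82 in LV and 4.01, 3.95 and 3.74 in Septum. RV lay wholly below both other regions, and its difference from Septum was -0.47 (adjusted p = 0.072). Of the 19 tricarboxylic acid cycle genes, all were lower in RV than in LV, with a median of -0.23. Of these 1 passed, Pdhx (-0.51, adjusted p = 0.037), a structural part of the pyruvate dehydrogenase complex. With slide as a block 7 passed and 7 with replicate number as a block, all lower, where 12.5% and 10.6% of all genes did. Of 78 mitochondrial ribosomal protein genes (Mrpl and Mrps), 76 were lower, with a median of -0.16, and 1 passed, Mrps18a (-0.43, adjusted p = 0.045). Of the 78, 21 passed with slide as a block, all lower, where 12.5% of all genes passed as lower. With replicate number as a block 8 did, all lower, where 10.6% of all genes did. The 84 tested cytosolic ribosomal protein genes (Rpl and Rps, without kinases and other genes that share the prefix) lay on the other side, with 77 higher in RV and a median of 0.09, and 0 passed by limma (0 at an unadjusted p below 0.05). Another fit, with slide as a block, passed 3 of them, higher, where 8.81% of all genes did. The fit with replicate number as a block also passed 3, higher, where 1062 of all 14645 genes did. Call shares over all genes were 3.14% higher and 1.84% lower in this comparison without a block.

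**Figure D4:**
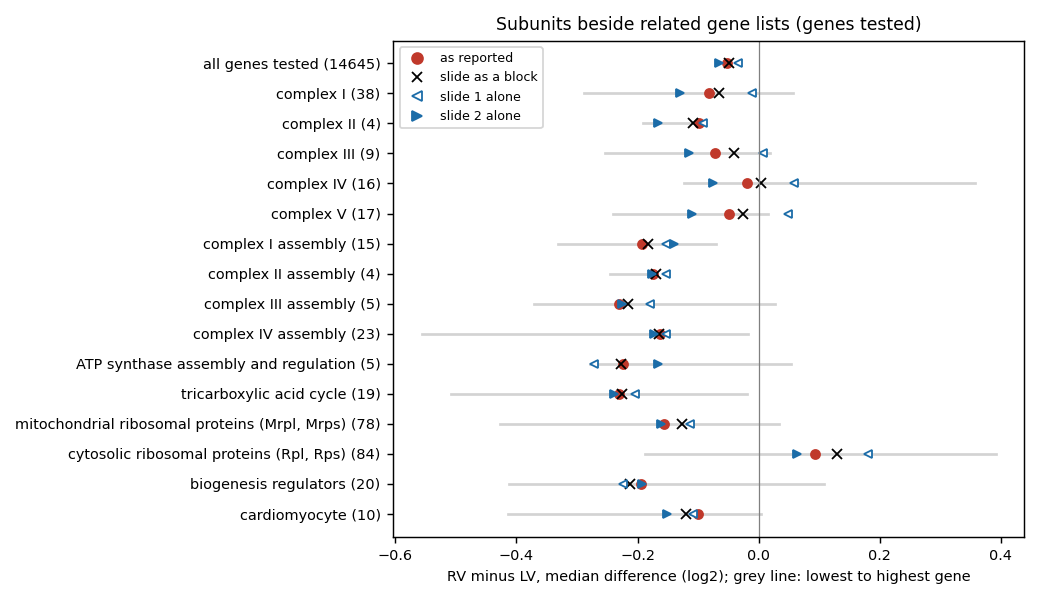
Median RV minus LV difference (x axis, log2) of the subunits by complex and of related gene lists, with the number of genes tested in brackets, points for the fit without a slide term, crosses for slide as a block, triangles for each slide alone, and grey lines from the lowest to the highest gene. Medians of the assembly, cycle and mitochondrial ribosome lists lie between -0.23 and -0.16 and below 0 on both slides. The complexes lie between -0.10 and -0.02. Complexes I and II are also below 0 on both slides, whereas complexes III, IV and V are above 0 on slide 1 and below 0 on slide 2.

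Among 20 regulators of mitochondrial biogenesis, 17 had a lower mean in RV than in LV, with a median of -0.19, and 2 passed. Esrrg, the oestrogen-related receptor gamma, read 1.72, 1.58, 1.59 and 1.70 in RV, 2.11, 2.06 and 2.02 in LV and 1.93, 1.96 and 1.97 in Septum. RV lay below both other regions without overlap, at -0.41 against LV (adjusted p = 0.014) and -0.30 against Septum (adjusted p = 0.062). Polrmt, the mitochondrial RNA polymerase, was lower by the fit at -0.39 (adjusted p = 0.038). With slide as a block 10 of the 20 passed, all lower, and with replicate number as a block 7 did, where 12.5% and 10.6% of all genes passed as lower.

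Ppargc1a, the coactivator often placed at the head of this programme, gave 0.10 in RV against LV (adjusted p = 0.74), and its ranges overlapped. Nrf1 gave 0.11 (adjusted p = 0.57) and Gabpa -0.10 (adjusted p = 0.45). Tfam, which packs mitochondrial DNA, gave -0.19 (adjusted p = 0.16, and 0.032 with slide as a block), and Esrra, the receptor alpha, gave -0.20 (adjusted p = 0.37, and 0.042 with the block). Of 9 tested carriers and uncoupling proteins, 2 passed, both higher in RV. Ucp2 gave 0.79 (adjusted p = 0.022) and Ucp3 0.63 (adjusted p = 0.034), with RV above LV on every array.

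The differences of these genes kept their sign with any 1 array left out, from -0.44 to -0.39 for Esrrg, -0.64 to -0.49 for Cox19, -0.55 to -0.44 for Taco1, -0.40 to -0.34 for Ttc19 and 0.67 to 0.90 for Ucp2, while some calls were lost. In these fits Esrrg lost its call without LV1 or LV2, Ucp2 without LV1, LV2 or RV4, and Cox19 without RV1, LV1, LV2 or RV4. Taco1 and Ttc19 each lost it in 6 of 10 fits, Taco1 without RV1, RV2, RV4 or any LV array and Ttc19 without RV2, RV3, RV4 or any LV array. Pdhx kept it only without RV3, LV3 or Septum3, Ucp3 only without LV2, Septum2 or Septum3, and Polrmt only without Septum2. Among these 8 genes the highest adjusted p was 0.14, for Polrmt. Mrps18a was called in 1 of the 10 fits (-0.51 to -0.38), and in 8 of 10 with slide as a block. With slide as a block, 7 of the other 8 genes were called in all 10 such fits, and Polrmt was not called without LV3 (adjusted p = 0.056).

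Markers of the tissue were read beside these values. All 10 heart muscle markers, among them Myh6, Tnnt2 and Tnni3, were well above background. Their mean level was 8.26 to 8.40 in RV, 8.39 to 8.58 in LV and 8.30 to 8.54 in Septum. The median RV minus LV difference was -0.10, 9 of 10 were lower and 0 were called. With slide as a block 4 were called, all lower, where 12.5% of all genes were. Most adipocyte markers moved the other way, with 7 of 9 tested called higher in RV than in LV, where 3.14% of all genes were. The other 2, Fabp4 and Lep, gave -0.24 and -0.15 and were not called. The mean level of the 9 was 1.07 to 1.52 in RV, -2.49 to -1.34 in LV and -0.91 to 0.43 in Septum. Adipoq was well above background on 0 of 3 LV arrays, so its LV level lies near background. Fibroblast markers were called higher in 3 of 8, and their mean level was 3.11 to 3.75 in RV, 2.64 to 2.88 in LV and 2.93 to 3.10 in Septum. For mesothelium markers, 0 of 8 were called against LV, with 7 passing unadjusted, where 22.8% of all genes did. Against Septum 7 of 8 were called, where 2.70% of all genes were. Their mean level was -0.30 to 1.13 in RV, -1.40 to -0.64 in LV and -3.67 to -1.47 in Septum. Lrrn4 was well above background on 4 of 4 RV, 2 of 3 LV and 1 of 3 Septum arrays. Krt19 and Krt8 were so on 2 of 3 Septum arrays, so these low levels lie near background. Against LV, 7 of 8 mesothelium and 6 of 8 fibroblast markers passed as higher with slide as a block, where 8.81% of all genes did. With replicate number as a block 6 and 3 did, where 1062 of all 14645 genes did. Of 7 brown fat markers, 4 were tested, and Cpt1b, which heart muscle also expresses, was called lower in RV than in LV (-0.47, adjusted p = 0.048). Cidea gave -0.35 (adjusted p = 0.12), Dio2 gave 0.76 (adjusted p = 0.32), and the fourth was Ppargc1a. Ucp1 and Zic1 were not well above background on any array, and Elovl3 was on 1 Septum array alone. The part of these cell types in the subunit differences was not tested, and in pieces of tissue fewer cells of a type and less RNA per cell cannot be told apart.

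The size of the members' median also moved with the scaling of the arrays. Against LV it was -0.03 after quantile normalization, -0.09 after median scaling and -0.01 after scaling to probes well above background on all arrays, beside -0.03, -0.07 and 0.00 over all genes. Set against Septum, it was -0.03 after quantile normalization and 0.05 after median scaling, so its sign was not fixed. In Septum against LV it ran from -0.14 after median scaling to -0.01 after quantile normalization, beside -0.08 and -0.01 over all genes. Members with a higher mean in Septum numbered 0 after median scaling and 40 of 85 after quantile normalization.

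**Figure D5:**
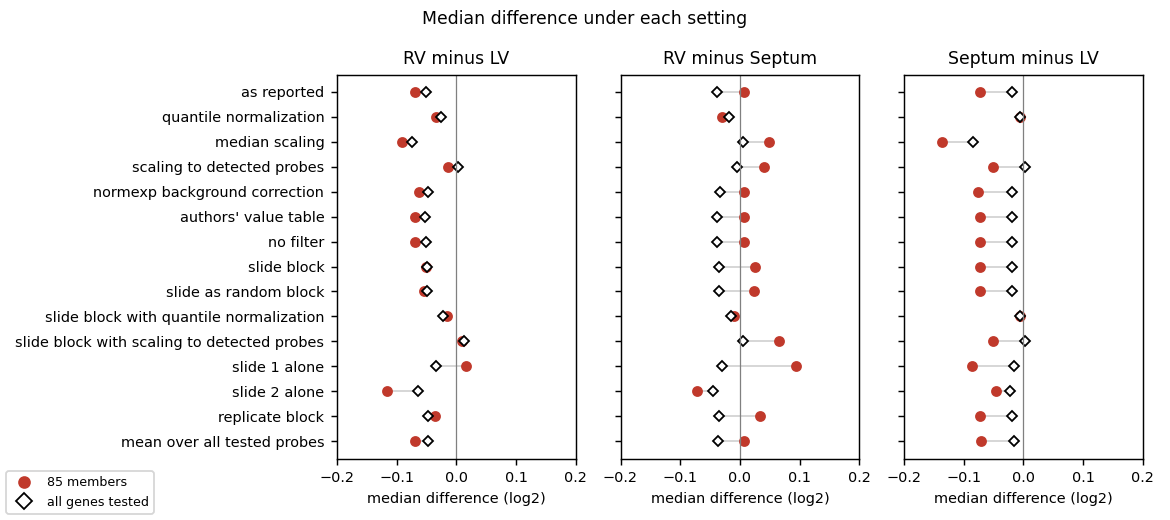
Median log2 difference (x axis) over the 85 members (points) and over all genes tested (open diamonds) under each processing setting, for the 3 pairs of regions. The members' median lies between -0.12 and 0.02 in RV minus LV and changes sign between settings in RV minus Septum, with the 2 slides at opposite ends in the latter.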

How the data were processed

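RNA from RV, LV and Septum of C57BL/6N mice was hybridised to 10 Agilent 1-colour arrays, 1 per sample. The authors deposited scanner output per array, with spot intensity written by Agilent Feature Extraction 11.5.1.1 (background-subtracted processed signal). A second deposited file holds log2 values made by the authors, which were found to equal the processed signal scaled to each array's 75th percentile, within 0.05 for 100% of probes on every array. Read depth does not apply, and the number of arrays limits the precision.

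Control spots and outlier-flagged spots were left out, spots of a probe were averaged, and log2 processed signal minus each array's 75th percentile was used. A probe was tested if all arrays of some region read it well above background, as 30234 of 56605 did. RefSeq accessions named 32994 probes (22911 genes) through a GRCm38.p6 table, and each gene is shown by its brightest probe, 14645 genes being tested. Differences were fitted with limma 3.58.1 in R 4.3.3, 1 mean per region over all 10 arrays and no covariate, with Benjamini-Hochberg adjustment over all probes. The fit was tested first on simulated data with independent noise on each array. Slide differences were not simulated, so that test does not cover them. The test named in the study's methods (analysis of variance, Tukey's comparison) was run as an alternative. P-values measure the spread between these samples.

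Samples were grouped by their titles. Same-numbered samples deviated together, since the correlation of their deviations from the region means ran from 0.36 (RV2 with LV2) to 0.64 (LV3 with Septum3) over probes. They also share a slide, and RV4, which has no partner, correlated with LV3 and Septum3 at 0.57 and 0.58. Within slide 1, samples of different numbers correlated at 0.09 (Septum1 with LV2) to 0.31 (RV1 with Septum2). On slide 2, RV3 correlated with LV3 and Septum3 at 0.43 and 0.44, below RV4, so number and slide cannot be told apart there. The numbers were used as a block in an alternative fit, without a label that states the pairing. Having no partner, RV4 adds nothing to the differences in that fit. That fit is given where it moves a count of RV against LV among the members or related lists.

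Alternatives covered scaling, normexp background correction with an offset of 50 (on median in place of mean signals), the filter, slide and replicate blocks, each slide alone, each array left out, all probes of a gene averaged, and the methods' test. Slide as a block with each array left out was chosen after seeing the data. Genes were named by a rule: members called with or without slide as a block, the isoforms described, the highest and lowest RV minus LV difference of each complex, called genes of the related lists, and 5 regulators. Genes named outside it are marked in the text, and 1 member that the rule names is counted but not reported here. The members, lists and tests were chosen with earlier results of these data known.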

Additional observations from a re-analysis of the deposited data

Results flagged for a closer look

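Sdha in RV was the 1 result of 42 checked in which an RV array stood apart. RV4 read 6.37 where the other 3 RV arrays read 6.15 to 6.19, and its gap to the nearest of them was 0.84 of the range of the 4 arrays, above Dixon's critical value for 4 samples. Chance alone marks about 1 in 20 such groups. Without RV4 the RV minus LV difference of Sdha was -0.24. Groups of 3 arrays were not checked in this way.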

How the results depend on the processing

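Without slide or replicate number in the fit, 0 members were called in any comparison by limma under quantile normalization, median scaling, scaling to detected probes, normexp correction, the authors' table, no filter, averaging of probes, and each array left out. The exceptions to a count of 0 across the 3 regions were slide as a block (2), slide as a random block (2), slide as a block with quantile normalization (2) and with scaling to detected probes (1). In RV against LV these were 4, 3, 2 and 2, with 1 on slide 1 alone, 2 with replicate number as a block and 6 by the methods' test, which is not adjusted across genes. In RV against Septum they were 1, 1, 1 and 1, with 1 on slide 1 alone and 1 by the methods' test. With slide as a block and each array left out, the counts ranged from 0 to 2 across the regions, 1 to 4 in RV against LV and 0 to 1 in RV against Septum. Replicate number as a block changed no other count of calls among the members. Where it moved the counts of related lists in RV against LV, its counts stand beside them above.

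The median difference of the members moved by more than the members' score varied between arrays of a region (pooled SD 0.0776) in 4 cases: RV against LV was 0.0099 with slide as a block and scaling to detected probes (where the median of all genes was 0.0122, and the difference between the medians was -0.0023) and 0.0165 on slide 1 alone, and RV against Septum was 0.0946 on slide 1 alone and -0.0718 on slide 2 alone. Some small RV minus LV differences changed sign. Uqcrb gave -0.0028 under median scaling, -0.0059 on slide 2 alone, -0.0085 with all probes averaged, and -0.0043 to 0.0598 with an array left out, being -0.0012 without RV3, with and without slide as a block. Atp5h gave -0.0065, -0.0528 and -0.0061 under the same 3 settings and -0.0489 to 0.0514 with an array left out (-0.0489 to 0.044 with slide as a block, including -0.0328 without RV1). Cox6b1 gave 0.0033 with slide as a block and scaling to detected probes and 0.0185 on slide 1 alone, and Nrf1 gave -0.0757 on slide 2 alone. The cause was not tested.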

Other observations

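Other cell type markers, read beside the subunits, are given here as values. All 9 macrophage markers had a higher mean in RV than in LV, with a median of 0.30 on the log2 scale, and 0 passed by limma. At an unadjusted p below 0.05, 2 passed, where 22.8% of all genes did. With slide as a block 2 passed as higher, where 8.81% of all genes did. With replicate number as a block 3 did, where 1062 of all 14645 genes did. The macrophage markers were higher in RV than in Septum in 9 of 9 as well, with a median of 0.27. Of 8 endothelial markers, 3 were higher and 5 lower in RV against LV, with a median of -0.13 and 0 called. With slide as a block 2 were called higher and 2 lower, where 8.81% and 12.5% of all genes were. The 4 tested blood markers were lower in RV than in LV (median -0.17) and higher than in Septum (median 0.13), and none passed. Among 6 tested atrial markers, Dkk3 was called higher in RV than in LV (3.08, adjusted p = 0.010), whereas Nppa, the atrial natriuretic peptide, gave -2.21 (adjusted p = 0.0504, and 0.029 with slide as a block). All 6 had a higher mean in Septum than in LV, with a median of 1.93, and the median of RV minus Septum was -1.61, with 0 called in either. Of 10 pericyte and smooth muscle markers, 5 were higher and 5 lower in RV against LV, with a median of 0.00 and 0 called. At an unadjusted limma p below 0.05, 3 were higher and 1 lower, where 22.8% of all genes passed in either direction. The fit with slide as a block called 3 higher and 1 lower, where 8.81% and 12.5% of all genes were. The part of these cells in the subunit values was not tested.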
